A study of Oryctolagus cuniculus with 39 samples.

Results

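The stromal vascular fraction (SVF) of interscapular brown fat was compared between rabbits aged 12 weeks and 1 day. The SVF is what remains of a fat depot once its fat cells have been taken away, namely fibroblast-like progenitors, cells of the vessel wall, immune and blood cells and nerve sheath cells. The libraries were chosen by their labels alone, 3 at each age, which makes 6 of the 39 samples of the series. All came from New Zealand White rabbits, and the labels name no treatment and no genetic change at either age. The series also holds SVF of the subscapular brown fat and whole interscapular fat at the same ages, and all 3 kinds of material at 3 and 6 weeks. Those libraries are used below only to place the 6, and the 3 single-cell samples were not analysed here. The labels do not say whether the 3 libraries of an age came from separate animals or from pools, so the p-values measure the spread between these libraries, which may be technical.

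Brown fat burns fuel to make heat through the mitochondrial protein UCP1, and in rabbits the interscapular depot is brown at birth and takes on the look of white fat during later growth. Its stroma carries the progenitors of fat cells, marked by the platelet-derived growth factor receptor PDGFRA, and lays down the collagens, proteoglycans and laminins that surround the fat cells and vessels. In many tissues of newborn mammals a set of imprinted genes, which are read from a single parental copy, is strongly expressed and is switched down as growth slows. The comparison asks which transcripts of the stroma differ between the newborn depot and the depot late in its regression.

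Levels are given as scaled FPKM, the deposited fragments per length of transcript and per total of mapped fragments after each library was scaled to the median ratio of the 6. Across genes, Pearson's r between replicates was 0.952 to 0.965 at day 1 and 0.966 to 0.973 at 12 weeks, and 0.858 to 0.887 between libraries of different age, where genes are not independent replicates. The tables give no read counts, so the absolute depth is unknown. Relative depth, read from the steps between low FPKM values, was 1.203, 1.238 and 0.732 at day 1 and 0.993, 0.998 and 0.926 at 12 weeks, so that day 1 library 3 was the shallowest. Between 16282 and 17799 genes were above 0 in a library. The transcripts named ADORA1 and LOC100009266 together held 2.40, 2.02 and 8.71% of the FPKM of the day 1 libraries and 4.48, 4.04 and 5.50% at 12 weeks. Whether the reads counted under these 2 names come from the genes so named was not tested.

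The labelled fraction was checked against marker lists of 15 cell types, whose summed levels are shown in the plot of markers by library. PDGFRA was present in each library, at 14.5, 18.8 and 9.78 at day 1 and 49.7, 37.5 and 40.7 at 12 weeks, and the progenitor markers summed to 7006, 10200 and 6955 at day 1 against 20810, 18800 and 26080 at 12 weeks. Markers of fat cells were also present, with ADIPOQ, the adipose hormone adiponectin, at 305, 348 and 622 at day 1 and 305, 467 and 247 at 12 weeks. Skeletal muscle transcripts were uneven between libraries. Their 11 markers summed to 1499, 1922 and 29.1 at day 1 and to 4.19, 2.37 and 106 at 12 weeks, so that they were high in day 1 libraries 1 and 2 and, at a lower level, in 12 weeks library 3. Erythroid markers summed to 370.4, 78.5 and 644 at day 1 and to 97.3, 109.8 and 112 at 12 weeks, lowest in day 1 library 2. Endothelial markers were also lowest in that library among those of day 1, at 1731, 643 and 1775, against 616, 1213 and 711 at 12 weeks. The part of these uneven cell types in the results below was not tested beyond leaving out each library in turn. In bulk libraries fewer cells of a type and less RNA per cell cannot be told apart.

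**Figure D1:**
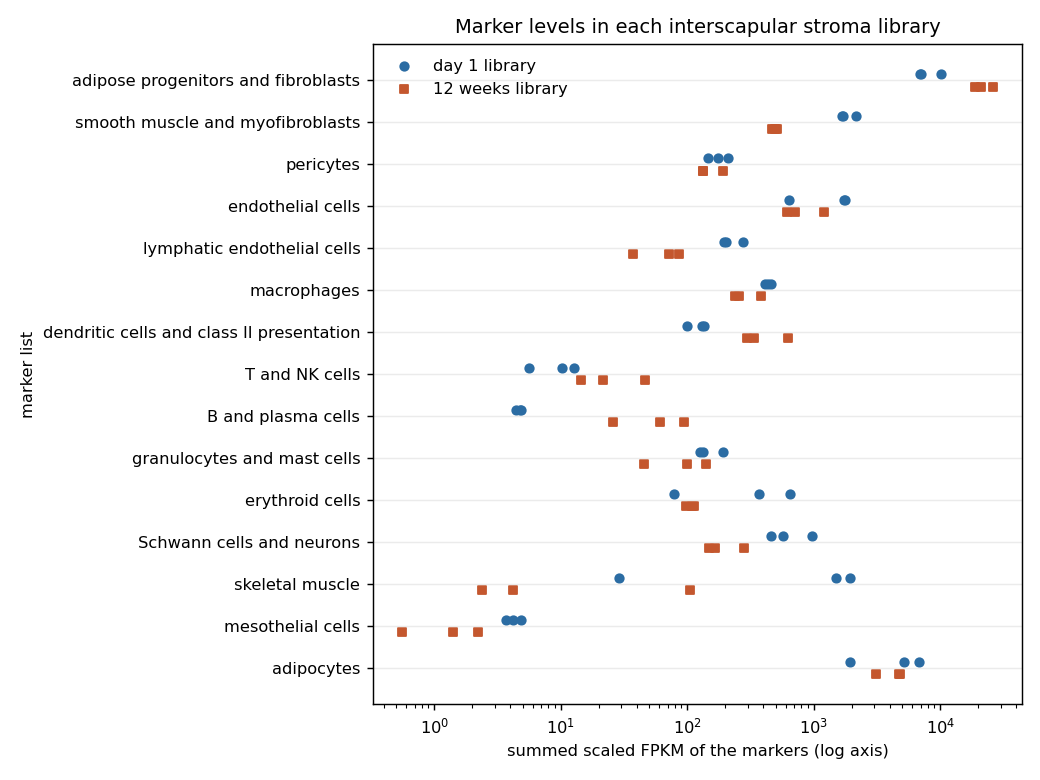
Summed scaled FPKM of the markers of 15 cell types (log axis) in each of the 3 day 1 libraries (circles) and the 3 libraries of 12 weeks (squares) of interscapular stroma. The progenitor markers are higher at 12 weeks (18800 to 26080) than at day 1 (6955 to 10200), and skeletal muscle markers spread over 29.1 to 1922 at day 1.

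Of 12054 genes tested with limma on the log2(FPKM + 1) scale, 5509 (45.7%) differed between the ages at a Benjamini-Hochberg adjusted p under 0.05. Of these, 2753 (22.8% of those tested) were higher and 2756 (22.9%) lower at 12 weeks. Folds below are log2 fold changes of 12 weeks against day 1 on that scale, which understates the change of genes with low FPKM. They reached at least 1 in size in 940 of the genes that rose (7.80%) and 962 of those that fell (7.98%), and at least 3 in 41 (0.340%) each way. The values of the ages did not overlap for 6926 genes (57.5%), 3478 higher (28.9%) and 3448 lower (28.6%). The split of calls depended on the scaling. As deposited, 2174 genes were called higher and 3101 lower. With ADORA1 and LOC100009266 left out and each library brought to the same total, 1611 were higher and 3985 lower. The median fold of all tested genes was -0.003 after the median ratio scaling, -0.11 as deposited and -0.25 with the pair left out, so smaller changes are read against those shifts.

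A filter on low values shaped some counts. Of the genes tested, 365 reached the minimum FPKM of 1 in day 1 libraries alone, and 177 in 12 weeks libraries alone. Such genes could be tested only because they were high at 1 age, and 334 and 170 of them were called. Among the other 11512 genes, 22.4% were called higher and 21.0% lower. Where a gene list below has such members, its count is also given without them. Counts of a list are read against the 22.8% called higher and 22.9% lower among all tested genes.

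The 12 largest rises among named genes with a mean of at least 10 at 1 age were led by C4BPA, the alpha chain of the complement inhibitor C4b-binding protein. Its level was 4.80, 11.8 and 9.43 at day 1 and 414, 372 and 553 at 12 weeks (log2 change 5.58 ± 0.30 SE, adjusted p = 8.58e-05). The lowest of the 12 weeks libraries lay far above the highest of day 1. NOX5, a calcium-activated oxidase that makes superoxide, stood at 0.717, 1.64 and 1.26 at day 1 and 193, 46.2 and 84.7 at 12 weeks (log2 change 5.41 ± 0.46 SE, adjusted p = 0.00036). ALDH1A1, which makes retinoic acid from retinaldehyde, stood at 2.43, 7.03 and 2.11 at day 1 and 115, 117 and 141 at 12 weeks (log2 change 4.82 ± 0.34 SE, adjusted p = 0.000175). The 12 weeks values of NOX5 spread widely, with library 1 highest, while those of ALDH1A1 lay close together. SMPD3, a neutral sphingomyelinase, was the most uneven, at 0.653, 13.6 and 1.12 at day 1 and 24.3, 219 and 124 at 12 weeks (log2 change 4.58 ± 0.99 SE, adjusted p = 0.00873), with library 2 the highest at each age.

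Other large rises were in secreted proteins and enzymes. PCOLCE2, which speeds the trimming of procollagen, was among the more abundant of them at 96.8, 132 and 104 at day 1 and 1562, 1153 and 1781 at 12 weeks (log2 change 3.74 ± 0.22 SE, adjusted p = 9.29e-05). PODN, or podocan, a small proteoglycan that binds collagen, was at 16.5, 16.8 and 17.9 at day 1 and 219, 258 and 219 at 12 weeks (log2 change 3.69 ± 0.13 SE, adjusted p = 1.2e-05). The 3 libraries of each age differed little for PODN, and the ages lay far apart. ITGBL1, a secreted protein related to integrin beta chains, rose by 4.01, the metalloproteinase MMP27 by 4.21, the sulfotransferase ST1A8 by 4.01, SELENBP1, which oxidises methanethiol, by 3.58 and the enkephalin precursor PENK by 3.58 (adjusted p of 0.000101, 0.000122, 0.00049, 0.00033 and 0.000996). JCHAIN, which joins antibody units in plasma cells, rose by 3.95 (adjusted p = 0.000664).

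The 12 largest falls began with ALOX15, the lipoxygenase of maturing red cells and of some macrophages, at 318, 24.1 and 247 at day 1 and 0.311, 0.0765 and 0.101 at 12 weeks (log2 change -6.76 ± 0.85 SE, adjusted p = 0.00126). Day 1 library 2 was far below the other day 1 libraries for this gene. All 3 lay above those of 12 weeks, as the rule that named these genes required. Erythroid markers were lowest in the same day 1 library (370.4, 78.5 and 644), but their 12 weeks sums (97.3, 109.8 and 112) were above it, and their part in the fall of ALOX15 was not tested. GPC3, a cell-surface heparan sulfate proteoglycan that restrains body growth before birth, was at 159.6, 212 and 181 at day 1 and 1.26, 1.64 and 1.97 at 12 weeks (log2 change -6.14 ± 0.16 SE, adjusted p = 6.1e-06). ACTG2, a smooth muscle actin, was at 90.1, 124 and 119 at day 1 and 3.40, 3.53 and 3.30 at 12 weeks (log2 change -4.65 ± 0.15 SE, adjusted p = 1.15e-05). For both, the libraries of an age agreed closely. UCP1 was at 20.2, 5.62 and 47.7 at day 1, and at 12 weeks it was listed at 0 in libraries 1 and 3 and at 0.0478 in library 2 (adjusted p = 0.00206). The matrix proteins FBN2 and COL12A1 fell by 4.13 and 4.01 (adjusted p of 8.63e-05 and 0.000113). PTN, the growth factor pleiotrophin, fell by 4.12 (adjusted p = 0.000436). AGTR2, a receptor for angiotensin II, was at 16.4, 13.9 and 16.2 at day 1 and 0, 0.134 and 0.101 at 12 weeks, with 1 of the 12 weeks libraries listed at 0 (adjusted p = 1.2e-05). The macrophage scavenger receptor CD163, the hormone STC1, the imprinted PEG10 and PHLDA1 made up the 12, with falls of 4.07, 3.80, 4.27 and 3.73. Of the 12, ALOX15, UCP1, FBN2, PTN and AGTR2 reached the minimum FPKM at day 1 alone. They could be tested only because they were high at that age.

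**Figure D2:**
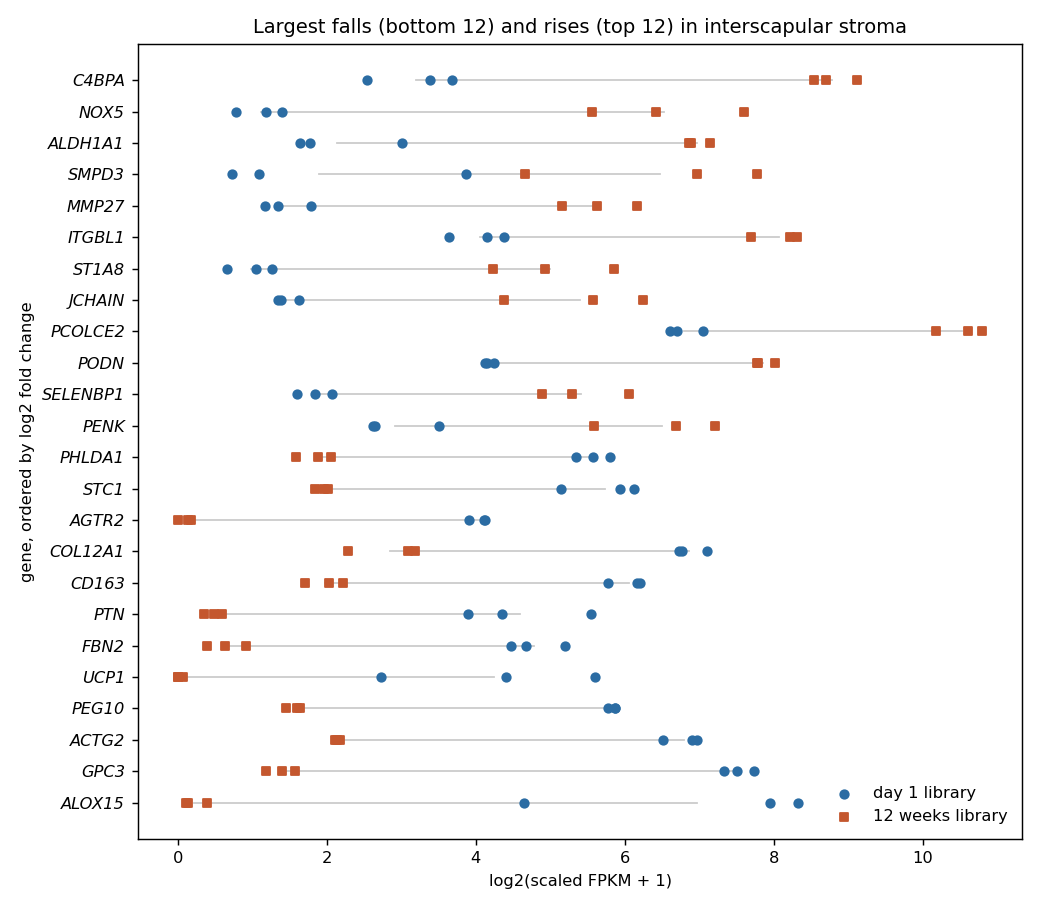
Level of the 12 named genes with the largest falls (lower rows) and the 12 with the largest rises (upper rows) as log2(scaled FPKM + 1), 1 point per library for day 1 (circles) and 12 weeks (squares), with a grey line between the means of the ages. The points of the ages do not overlap in any row, which the rule that named these genes required.

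Imprinted growth genes were lower at 12 weeks. Of 11 tested members of this list, 10 fell and 0 rose, with a median fold of -1.48. Of these, 3 reached the minimum at day 1 alone, and of the other 8, 7 fell. PEG10, a gene derived from a retroelement and needed for the placenta, was at 53.6, 57.5 and 57.4 at day 1 and 1.74, 2.04 and 2.11 at 12 weeks (log2 change -4.27 ± 0.12 SE, adjusted p = 6.1e-06). PLAGL1, a zinc finger factor that regulates other imprinted genes, was at 63.0, 61.8 and 44.2 at day 1 and 3.60, 3.58 and 4.11 at 12 weeks (log2 change -3.57 ± 0.17 SE, adjusted p = 4.57e-05). PEG3, another zinc finger factor, was at 18.4, 36.9 and 27.9 at day 1 and 3.31, 2.71 and 2.92 at 12 weeks (log2 change -2.80 ± 0.24 SE, adjusted p = 0.000358). In these 3 genes the 12 weeks values lay within a narrow range and far under day 1. MEST, which is linked to the growth of fat cells, was at 26.6, 41.4 and 27.4 at day 1 and 2.49, 2.51 and 7.35 at 12 weeks (log2 change -2.78 ± 0.35 SE, adjusted p = 0.00128), with 12 weeks library 3 above the other 12 weeks libraries. DLK1, a surface protein of preadipocytes that holds back their maturation, was the most abundant member, at 692, 868 and 568 at day 1 and 125, 101 and 174 at 12 weeks (log2 change -2.42 ± 0.25 SE, adjusted p = 0.000605). The remaining members moved less. MAGEL2, a partner of ubiquitin ligases, fell by 1.48 (adjusted p = 0.00168). NDN, the gene for necdin, did not pass the test, at 20.3, 23.9 and 17.8 at day 1 and 24.8, 18.5 and 23.8 at 12 weeks (log2 change 0.11 ± 0.17 SE, adjusted p = 0.605), and its ages overlapped. Its fold was -0.01 as deposited and -0.16 with ADORA1 and LOC100009266 left out.

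The course of these genes between the compared ages was not the same. PEG10 had mean levels of 56.2 at day 1, 10.1 at 3 weeks, 10.0 at 6 weeks and 1.96 at 12 weeks, so that most of its fall lay before 3 weeks and a further fall after 6 weeks. PEG3 was still at 23.0 at 3 weeks and 15.1 at 6 weeks, against 27.7 at day 1 and 2.98 at 12 weeks. DLK1 went from 709 to 367, 419.6 and 134. GPC3 went from 184 to 56.5, 17.0 and 1.62, lower at each later age.

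Regulators of fetal growth that are not imprinted fell too. The list had 7 tested members, all called lower, but 4 of them passed the filter through the day 1 libraries alone. Without day 1 library 1, 2 or 3 the count was 3, 2 and 2. In those fits the 4 no longer reached the minimum in 3 libraries and were not tested. Why the count was lower without library 2 or 3 than without library 1 was not tested. GPC3 and HMGA1 were among the 3 that passed it otherwise. HMGA1, a chromatin protein of proliferating embryonic cells, was at 18.9, 14.4 and 16.7 at day 1 and 1.91, 3.68 and 2.43 at 12 weeks (log2 change -2.28 ± 0.20 SE, adjusted p = 0.000398). IGF2BP2, an RNA-binding protein that stabilises growth factor transcripts, was at 11.4, 14.9 and 12.3 at day 1 and 0.415, 0.0669 and 0.0786 at 12 weeks (log2 change -3.55 ± 0.17 SE, adjusted p = 4.98e-05). Its relative IGF2BP3 was at 5.88, 5.38 and 6.71 at day 1 and 0.643, 0.650 and 0.820 at 12 weeks (log2 change -2.03 ± 0.14 SE, adjusted p = 0.000169). The values of the ages did not overlap for HMGA1, as for 57.5% of all tested genes. IGF2BP2 and IGF2BP3 were among the 4 that passed the filter through the day 1 libraries alone, so their lack of overlap followed from the filter.

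**Figure D3:**
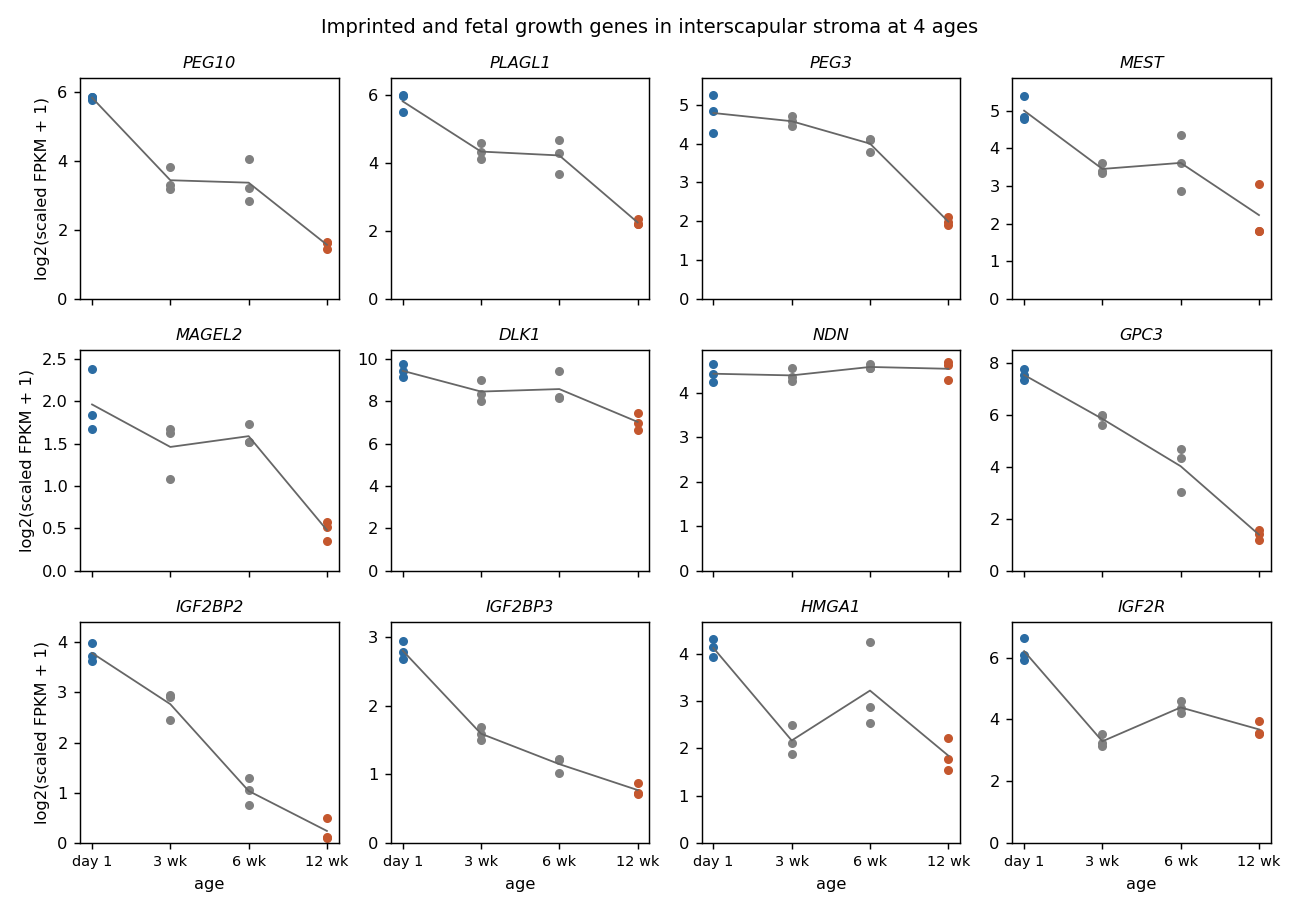
Levels of 12 imprinted or fetal growth genes at day 1, 3, 6 and 12 weeks as log2(scaled FPKM + 1), 1 point per library and a line through the mean of each age, in interscapular stroma. The mean of GPC3 is lower at each later age (184, 56.5, 17.0 and 1.62), that of PEG3 is 15.1 at 6 weeks and 2.98 at 12 weeks, and the NDN libraries of day 1 and 12 weeks overlap.

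Around the insulin-like growth factors (IGF), which drive growth through a receptor and are held by binding proteins, members moved in opposite directions. Of 13 tested genes, 5 rose and 6 fell, and of the 12 not at the minimum at day 1 alone, 5 rose and 5 fell. IGFBP6, which binds IGF2 with preference, was at 257, 250.2 and 144 at day 1 and 1530, 1094 and 2058 at 12 weeks (log2 change 2.84 ± 0.31 SE, adjusted p = 0.00075). IGFBP5, a binding protein held in the matrix, was at 72.9, 95.0 and 50.4 at day 1 and 528, 365 and 357 at 12 weeks (log2 change 2.52 ± 0.26 SE, adjusted p = 0.000634). Both were higher in each 12 weeks library, as were 28.9% of all tested genes. IGF2R, the receptor that carries IGF2 to the lysosome, was at 67.1, 97.7 and 59.3 at day 1 and 14.2, 10.9 and 10.5 at 12 weeks (log2 change -2.54 ± 0.21 SE, adjusted p = 0.00035). PAPPA, the protease that frees IGF from a binding protein, was at 6.33, 7.51 and 6.62 at day 1 and 0.0622, 0.134 and 0.0337 at 12 weeks (log2 change -2.86 ± 0.14 SE, adjusted p = 4.64e-05). PAPPA was the member at the minimum at day 1 alone. Its inhibitors STC1 and STC2 fell by 3.80 and 1.54 (adjusted p of 0.000122 and 0.00342). IGF2 itself was not found by symbol and was not analysed here.

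Progenitor and fibroblast genes rose more often than they fell. Of 23 tested, 10 rose, 4 fell and 9 were not called, with a median fold of 0.73. The 4 that fell, DLK1 among them, became 2 without day 1 library 1 or 3 or 12 weeks library 1. PI16, which marks progenitors lying outside the vessels, was at 449.7, 512 and 209.6 at day 1 and 2912, 3438 and 1897 at 12 weeks (log2 change 2.87 ± 0.38 SE, adjusted p = 0.00142). CLEC3B, or tetranectin, was at 441, 503 and 314 at day 1 and 1915, 1833 and 2333 at 12 weeks (log2 change 2.29 ± 0.23 SE, adjusted p = 0.000563). THY1, a surface protein of mesenchymal cells, was at 163, 254 and 123 at day 1 and 844, 699 and 879 at 12 weeks (log2 change 2.22 ± 0.27 SE, adjusted p = 0.00106). The 12 weeks libraries were the higher for all 3, as for 28.9% of all tested genes. Among the day 1 libraries number 3 was the lowest for all 3. SEMA3C, a guidance factor secreted by progenitors, rose by 1.61 and PDGFRA by 1.54 (adjusted p of 0.00487 and 0.00227). MFAP5 was not called, at 884, 1835 and 1025 at day 1 and 1866, 1670 and 2453 at 12 weeks (log2 change 0.73 ± 0.31 SE, adjusted p = 0.0901), and its adjusted p was 0.0151 without day 1 library 2, which had the highest day 1 value.

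In the matrix that these cells secrete, the main fibrillar collagens were not called. COL1A1 was at 10460, 13500 and 7128 at day 1 and 13560, 10710 and 12980 at 12 weeks (log2 change 0.30 ± 0.33 SE, adjusted p = 0.482) and COL3A1 at 10190, 16810 and 9813 at day 1 and 15340, 12050 and 17460 at 12 weeks (log2 change 0.31 ± 0.34 SE, adjusted p = 0.48), and for each the ages overlapped. Among 14 tested members of the fibrillar list 1 rose and 4 fell (28.6%, against 22.9% of all tested genes). The 4 were 2 without day 1 library 1 or 2. Of the 13 not at the minimum at day 1 alone, 3 fell. SPARC, a collagen chaperone outside the cell, was the one that rose, at 5784, 8368 and 5131 at day 1 and 16110, 13460 and 22350 at 12 weeks (log2 change 1.43 ± 0.34 SE, adjusted p = 0.0118). Its adjusted p was 0.222 when no filter on low values was used. COL5A3 fell by 2.36 and COL11A1 by 1.93, both minor collagens of the fibril (adjusted p of 0.000347 and 0.000358).

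Small leucine-rich proteoglycans, which coat collagen fibrils and set their thickness, were listed together with VCAN and hyaluronan genes such as HAS2 and CD44. Of the 13 tested members of this mixed list 6 rose, HAS2 among them, and 2 fell, with a median fold of 0.80. DCN, or decorin, was the most abundant of them, at 1849, 3219 and 2284 at day 1 and 9519, 7009 and 13830 at 12 weeks (log2 change 2.03 ± 0.34 SE, adjusted p = 0.00342). PRELP, which links collagen to basement membranes, was at 63.3, 73.2 and 40.0 at day 1 and 305, 201 and 255 at 12 weeks (log2 change 2.11 ± 0.25 SE, adjusted p = 0.00104). ECM2 rose by 1.76 (adjusted p = 0.00407). BGN, or biglycan, went the other way, at 231, 190.3 and 136 at day 1 and 32.8, 104 and 30.3 at 12 weeks (log2 change -1.93 ± 0.45 SE, adjusted p = 0.0119), with 12 weeks library 2 above the other 12 weeks libraries. LUM, or lumican, was not called, at 511, 843 and 625 at day 1 and 773, 939 and 1811 at 12 weeks (log2 change 0.76 ± 0.35 SE, adjusted p = 0.106). The hyaluronan receptor CD44 fell by 1.52 (adjusted p = 0.0011).

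Basement membrane genes fell in 12 of 16 tested, and 1 rose, with a median fold of -0.89. Of the 14 not at the minimum at day 1 alone, 10 fell. The single rise was not called without day 1 library 1 or 3 or 12 weeks library 1. COL4A1 and COL4A2 encode the collagen IV chains of vessel and fat cell basement membranes. COL4A1 was at 646, 376 and 600.4 at day 1 and 131, 254 and 107 at 12 weeks (log2 change -1.78 ± 0.35 SE, adjusted p = 0.00595), and COL4A2 fell by 1.85 (adjusted p = 0.0069). COL18A1, the source of endostatin, was at 24.7, 22.3 and 22.3 at day 1 and 2.95, 3.67 and 1.96 at 12 weeks (log2 change -2.67 ± 0.18 SE, adjusted p = 0.000162). LAMA2, a laminin chain, was at 82.8, 86.7 and 81.2 at day 1 and 37.9, 41.8 and 27.6 at 12 weeks (log2 change -1.22 ± 0.17 SE, adjusted p = 0.00171). For COL18A1 and LAMA2 the libraries of an age lay close together, while COL4A1 was lowest at day 1 in library 2 and highest at 12 weeks in library 2. These are the libraries with the lowest and the highest sum of endothelial markers for their age, and the part of endothelial cells in the fall of COL4A1 was not tested.

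Elastic fibre and matricellular genes fell in 8 of 19 tested and rose in 3, and of the 16 not at the minimum at day 1 alone, 5 fell. The falls numbered 5 without any 1 of the day 1 libraries, and the rises 1 without day 1 library 1 or 3 or 12 weeks library 1. TNC, or tenascin C, a matrix protein of embryos and wounds, was at 21.98, 16.7 and 18.3 at day 1 and 0.653, 0.583 and 0.483 at 12 weeks (log2 change -3.66 ± 0.15 SE, adjusted p = 2.61e-05). THBS1, or thrombospondin 1, which activates TGF-beta and curbs vessel growth, was at 304, 347 and 279.5 at day 1 and 44.6, 42.0 and 53.4 at 12 weeks (log2 change -2.71 ± 0.15 SE, adjusted p = 9.15e-05). CTGF, a matricellular factor induced by TGF-beta and stretch, was at 93.5, 108 and 104 at day 1 and 12.9, 25.1 and 18.6 at 12 weeks (log2 change -2.42 ± 0.22 SE, adjusted p = 0.000448). POSTN, or periostin, was the most abundant, at 2220, 4804 and 2344 at day 1 and 801, 516 and 1320 at 12 weeks (log2 change -1.84 ± 0.42 SE, adjusted p = 0.0107). All 4 were lower in each 12 weeks library, as were 28.6% of all tested genes. For TNC, at the minimum at day 1 alone, this followed from the filter.

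Enzymes that shape the matrix moved both ways. Of 21 tested proteases and inhibitors, 9 rose and 8 fell, all of them among the 20 not at the minimum at day 1 alone. ADAMTS4, which cuts hyalectans, fell by 2.56, MMP19 by 2.54 and ADAM12 by 2.37 (adjusted p of 0.000113, 6.98e-05 and 0.000347). MMP27 was the largest rise of the list. Among 20 genes of collagen processing 6 rose and 4 fell, shares near the 22.8% and 22.9% of all tested genes. SERPINH1, the chaperone of procollagen, rose by 1.17 and ADAMTS2, which removes a propeptide, by 1.14 (adjusted p of 0.00414 and 0.00483). Without day 1 library 3 the counts were 3 and 2, and the falls were also 2 without 12 weeks library 1 or 3. With ADORA1 and LOC100009266 left out 3 rose and 8 fell, and that scaling also moved the calls among all genes downward, to 1611 higher and 3985 lower.

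Genes of contractile smooth muscle and myofibroblasts fell in 11 of 15 tested and rose in 0, with a median fold of -1.61, and of the 14 not at the minimum at day 1 alone, 10 fell. ACTA2, smooth muscle alpha-actin, was at 462, 671 and 648 at day 1 and 68.0, 56.8 and 51.8 at 12 weeks (log2 change -3.30 ± 0.19 SE, adjusted p = 9.81e-05). TAGLN, which binds actin filaments, was at 229.9, 228 and 213 at day 1 and 46.8, 38.1 and 28.5 at 12 weeks (log2 change -2.56 ± 0.19 SE, adjusted p = 0.000212). MYH11, the smooth muscle myosin heavy chain, was at 39.2, 58.3 and 47.6 at day 1 and 11.5, 8.44 and 6.54 at 12 weeks (log2 change -2.34 ± 0.22 SE, adjusted p = 0.000483). These genes were about as high in day 1 library 3, where skeletal muscle markers were low, as in the other day 1 libraries. DES and TPM2, which skeletal muscle also uses, were lowest in that library at day 1, with DES at 66.6, 89.3 and 12.3 at day 1 and 2.89, 1.052 and 7.03 at 12 weeks (log2 change -3.44 ± 0.75 SE, adjusted p = 0.00911). The part of skeletal muscle in the falls of this list was not tested. CALD1 was not called, at 56.1, 79.3 and 83.4 at day 1 and 61.8, 56.1 and 63.8 at 12 weeks (log2 change -0.25 ± 0.18 SE, adjusted p = 0.283).

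Pericyte genes fell in 5 of 10 tested and rose in 1. MCAM, an adhesion molecule of vessel cells, fell by 1.93 and NOTCH3 by 1.54 (adjusted p of 0.00171 and 0.00657). KCNJ8, a potassium channel subunit of pericytes, was the one that rose, at 6.42, 10.2 and 7.61 at day 1 and 48.5, 43.8 and 46.5 at 12 weeks (log2 change 2.40 ± 0.17 SE, adjusted p = 0.000175). RGS5, the usual pericyte marker, was not called, at 24.8, 19.4 and 42.2 at day 1 and 32.0, 71.6 and 33.4 at 12 weeks (log2 change 0.62 ± 0.37 SE, adjusted p = 0.205), and its mean was 96.5 at 3 weeks and 158 at 6 weeks.

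Endothelial genes fell in 5 of 14 tested (35.7%, against 22.9% of all tested genes) and rose in 1. The count of falls rested on single libraries. It was 1 without day 1 library 1 or 3 or 12 weeks library 1 or 3, and 9 without day 1 library 2. TEK, the angiopoietin receptor, was at 50.3, 31.1 and 54.2 at day 1 and 12.3, 22.6 and 13.5 at 12 weeks (log2 change -1.44 ± 0.28 SE, adjusted p = 0.00577) and did not overlap. PLVAP, the diaphragm protein of fenestrated vessels, rose, at 46.3, 28.9 and 54.4 at day 1 and 114, 199.7 and 90.8 at 12 weeks (log2 change 1.59 ± 0.33 SE, adjusted p = 0.00748). Lymphatic genes fell in 4 of 7 tested and rose in 1, and of the 5 not at the minimum at day 1 alone, 2 fell. The falls were 2 without any 1 of the day 1 libraries. LYVE1, a hyaluronan receptor of lymphatic vessels and of some macrophages, was at 106, 141 and 111 at day 1 and 12.0, 18.6 and 34.0 at 12 weeks (log2 change -2.53 ± 0.33 SE, adjusted p = 0.00142). MMRN1, an extracellular protein of lymphatic endothelium and platelets, was at 24.7, 38.2 and 26.5 at day 1 and 0.716, 5.32 and 1.24 at 12 weeks (log2 change -3.39 ± 0.45 SE, adjusted p = 0.00146). PROX1, the factor that sets lymphatic identity, was at 4.47, 8.29 and 4.81 at day 1 and 0.124, 0.660 and 0.101 at 12 weeks (log2 change -2.39 ± 0.26 SE, adjusted p = 0.000723). Each was lower in all 12 weeks libraries, as were 28.6% of all tested genes. For PROX1, at the minimum at day 1 alone, this followed from the filter.

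Schwann cell and neuron genes fell in 8 of 10 tested and rose in 0, with a median fold of -1.92, and of the 9 not at the minimum at day 1 alone, 7 fell. The count was 5 without day 1 library 3. NGFR, a nerve growth factor receptor of immature and non-myelinating Schwann cells, was at 8.91, 9.75 and 13.1 at day 1 and 0.684, 0.402 and 0.236 at 12 weeks (log2 change -3.002 ± 0.19 SE, adjusted p = 0.000113). SOX10, the factor that defines the lineage, was at 5.64, 5.23 and 8.73 at day 1 and 2.19, 0.411 and 0.270 at 12 weeks (log2 change -2.05 ± 0.36 SE, adjusted p = 0.00393). The ages did not overlap for NGFR or SOX10, as for 57.5% of all tested genes, and day 1 library 3 was the highest for both. For NGFR, which reached the minimum at day 1 alone, the lack of overlap followed from the filter.

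Macrophage genes did not move as a block. Of 15 tested, 7 fell and 2 rose, and 4 fell without day 1 library 1 or 12 weeks library 1 or 3. The rises were 1 without day 1 library 2 or 3 or 12 weeks library 2. The scavenger receptors led the falls. CD163, which takes up haemoglobin, was at 72.9, 53.9 and 70.8 at day 1 and 2.26, 3.08 and 3.63 at 12 weeks (log2 change -4.07 ± 0.18 SE, adjusted p = 4.57e-05). MRC1, the mannose receptor of resident macrophages, was at 76.4, 82.1 and 88.1 at day 1 and 4.24, 6.65 and 8.84 at 12 weeks (log2 change -3.50 ± 0.22 SE, adjusted p = 0.000119). All were far apart between the ages. MSR1 fell by 2.23 (adjusted p = 0.000362). The general marker CD68 was at 25.8, 24.8 and 26.7 at day 1 and 22.2, 24.5 and 21.3 at 12 weeks (log2 change -0.18 ± 0.12 SE, adjusted p = 0.254), and C1QC, a subunit of complement C1q made by macrophages, was at 62.5, 59.3 and 52.0 at day 1 and 30.0, 97.2 and 30.2 at 12 weeks (log2 change -0.37 ± 0.42 SE, adjusted p = 0.5), with 12 weeks library 2 highest. Without that library C1QC was called, with an adjusted p of 0.00591. AIF1 rose, at 13.8, 14.6 and 13.1 at day 1 and 23.0, 37.1 and 33.9 at 12 weeks (log2 change 1.098 ± 0.19 SE, adjusted p = 0.00348).

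Some genes of antigen presentation and of lymphocytes were higher at 12 weeks, the latter at low levels. CD74, the invariant chain of class II molecules, was at 84.5, 63.4 and 93.5 at day 1 and 292, 567 and 264 at 12 weeks (log2 change 2.13 ± 0.30 SE, adjusted p = 0.00183). JCHAIN was at 1.54, 2.09 and 1.60 at day 1 and 19.9, 75.1 and 46.8 at 12 weeks, and MZB1, a plasma cell chaperone, at 0, 0.0805 and 0.255 at day 1 and 1.63, 3.75 and 4.26 at 12 weeks, listed at 0 in day 1 library 1 (adjusted p of 0.000664 and 0.00196). CD247, a chain of the T cell receptor complex, was at 1.69, 0.362 and 1.21 at day 1 and 3.91, 8.14 and 3.98 at 12 weeks (log2 change 1.60 ± 0.33 SE, adjusted p = 0.00685). 12 weeks library 2 was the highest of its age for each of these but MZB1. All 4 tested genes of B and plasma cells rose, 2 of them, MZB1 included, at the minimum at 12 weeks alone. With any library but day 1 library 3 left out, 2 rose. Of 6 tested genes of T and NK cells 3 rose, and 2 of the 5 not at the minimum at 12 weeks alone. Of 7 tested genes of dendritic cells and class II presentation 2 rose (28.6%, against 22.8% of all tested genes) and 1 fell. Without 12 weeks library 3 the rises were 4. HDC, which makes histamine in mast cells and other granulocytes, fell, at 7.71, 6.06 and 8.05 at day 1 and 0.207, 0.191 and 0.315 at 12 weeks (log2 change -2.73 ± 0.15 SE, adjusted p = 9.15e-05). HDC reached the minimum at day 1 alone.

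Chemokines and cytokines fell in 8 of 15 tested and rose in 1, or 2 without 12 weeks library 2, with a median fold of -1.06. IL6, a cytokine of acute inflammation, was at 133, 125 and 127 at day 1 and 19.01, 24.3 and 34.6 at 12 weeks (log2 change -2.30 ± 0.21 SE, adjusted p = 0.000423). CCL11, or eotaxin, was at 15.1, 14.4 and 32.1 at day 1 and 3.19, 4.40 and 3.43 at 12 weeks (log2 change -2.12 ± 0.29 SE, adjusted p = 0.00168). TNF was at 26.3, 29.9 and 30.0 at day 1 and 5.52, 10.7 and 6.64 at 12 weeks (log2 change -1.83 ± 0.22 SE, adjusted p = 0.00102). The day 1 libraries were higher throughout for these genes, as for 28.6% of all tested genes. IL34, a ligand of the macrophage growth factor receptor CSF1R, was the one that rose, at 3.44, 3.53 and 3.54 at day 1 and 24.8, 16.9 and 21.2 at 12 weeks (log2 change 2.27 ± 0.16 SE, adjusted p = 0.000171). CCL2 was not called, at 677, 1079 and 894 at day 1 and 498, 325 and 695 at 12 weeks (log2 change -0.85 ± 0.31 SE, adjusted p = 0.0554), and was called under several alternatives, among them as deposited (adjusted p = 0.0165) and without day 1 library 1 or 12 weeks library 3 (0.0476 and 0.0269). In the complement list 6 of 16 tested rose and 1 fell, and of the 14 not at the minimum at 1 age alone, 5 rose and 0 fell. Without 12 weeks library 2 the falls were 3. After C4BPA, the inhibitor SERPING1 was at 248, 279.6 and 252 at day 1 and 784, 756 and 793 at 12 weeks (log2 change 1.58 ± 0.15 SE, adjusted p = 0.000444), the protease C1R rose by 1.36 and the control protease CFI by 1.53 (adjusted p of 0.00139 and 0.00143).

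Genes of dividing cells were lower at 12 weeks. Of 18 genes of DNA replication 11 fell, and of 20 of mitosis 15 fell, with 0 rises and median folds of -0.62 and -0.71. Among those not at the minimum at day 1 alone, 10 of 17 and 13 of 18 fell. The counts moved with the libraries. Without day 1 library 2 they were 6 and 8, and the replication genes numbered 7 without 12 weeks library 1 or 2. MCM6, a subunit of the replicative helicase, was at 18.1, 25.2 and 15.7 at day 1 and 6.08, 5.35 and 5.84 at 12 weeks (log2 change -1.59 ± 0.18 SE, adjusted p = 0.000913). RRM2, a subunit of ribonucleotide reductase, was at 15.2, 24.6 and 27.0 at day 1 and 7.31, 5.12 and 6.99 at 12 weeks (log2 change -1.61 ± 0.23 SE, adjusted p = 0.00194). MKI67, the Ki-67 antigen of cycling cells, was at 5.21, 7.06 and 6.33 at day 1 and 2.71, 2.05 and 2 at 12 weeks (log2 change -1.15 ± 0.16 SE, adjusted p = 0.00177). None of these overlapped between the ages, as for 57.5% of all tested genes. CDKN1A, the cell cycle inhibitor p21, also fell, at 158, 135 and 131 at day 1 and 39.1, 42.5 and 39.0 at 12 weeks (log2 change -1.78 ± 0.13 SE, adjusted p = 0.000229), while the inhibitor CDKN2C rose by 1.44 (adjusted p = 0.00145).

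**Figure D4:**
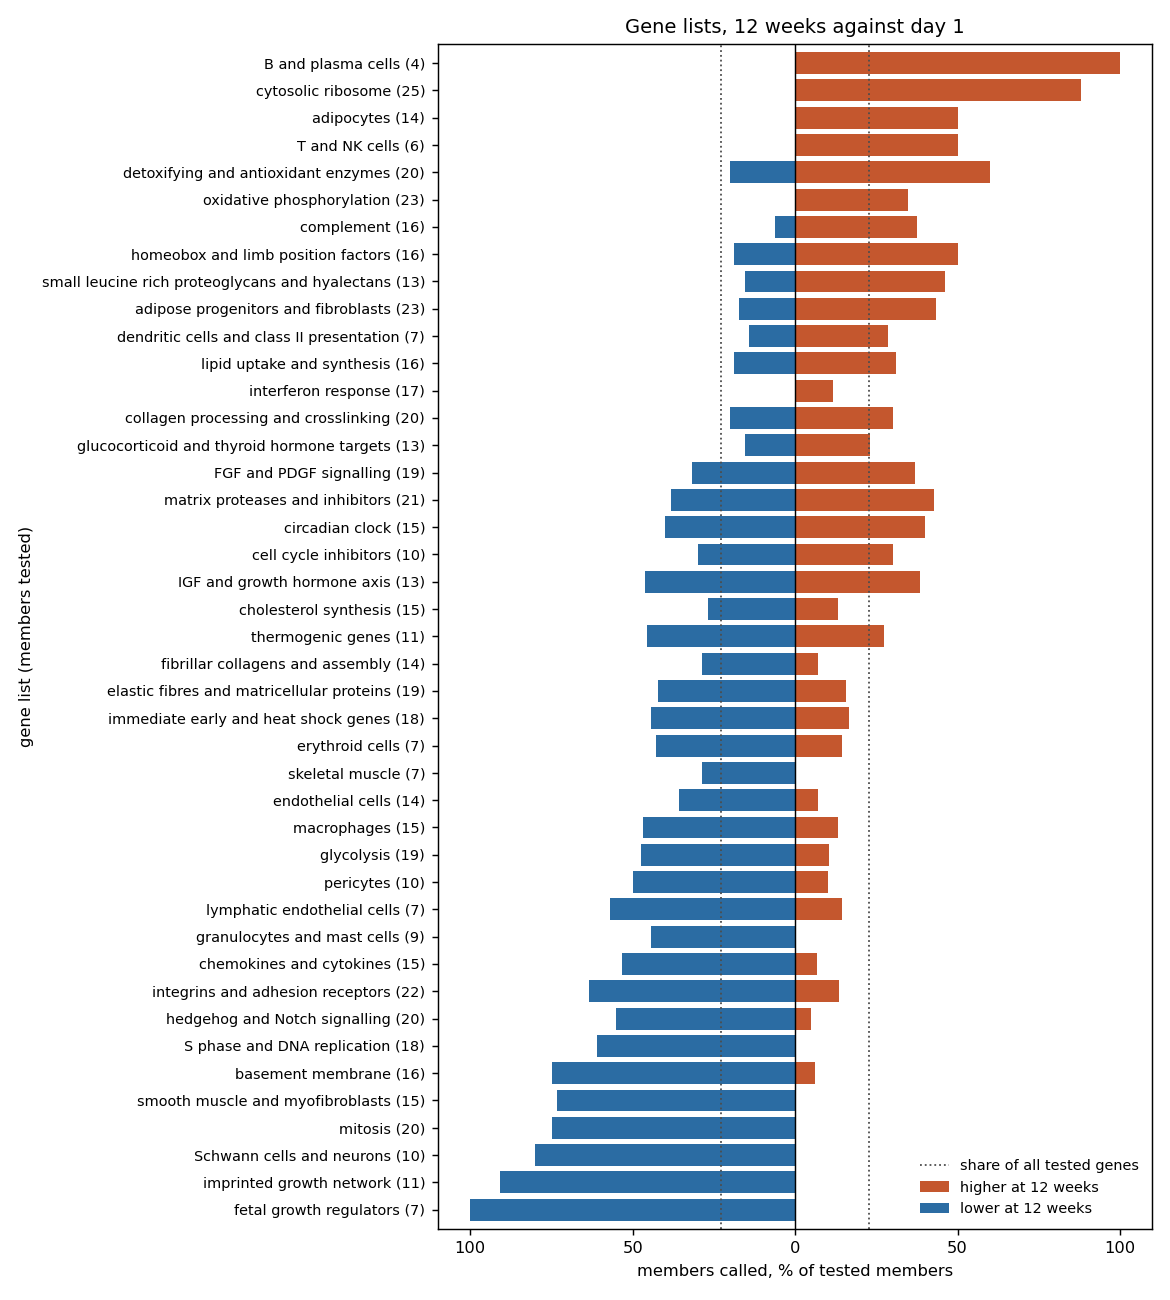
Share of the tested members of each gene list with 4 or more of them that were called higher (right) or lower (left) at 12 weeks than at day 1 in interscapular stroma (limma, adjusted p under 0.05), with the number tested in brackets and dotted lines at the shares among all tested genes (22.8% higher and 22.9% lower). Among lists of 11 or more, the ribosome (22 of 25 higher) and the detoxifying enzymes (12 of 20) reach furthest to the right, and imprinted genes (10 of 11 lower), mitosis (15 of 20) and basement membrane (12 of 16) furthest to the left.

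Genes of the cytosolic ribosome rose in 22 of 25 tested and fell in 0, with a median fold of 0.77. The folds were small, and 17 rose and 0 fell with ADORA1 and LOC100009266 left out. The count was 14 without day 1 library 1 or 3 or 12 weeks library 1. RPL7A was at 295, 333 and 305 at day 1 and 641, 632 and 696 at 12 weeks (log2 change 1.08 ± 0.15 SE, adjusted p = 0.00163), and RPS18 rose by 1.07 (adjusted p = 0.0036). Genes of oxidative phosphorylation, which makes ATP in mitochondria, rose in 8 of 23 and fell in 0. COX4I1, a subunit of cytochrome c oxidase, was at 153, 149 and 144 at day 1 and 264, 267 and 316 at 12 weeks (log2 change 0.92 ± 0.14 SE, adjusted p = 0.00243). The count was 2, 5 and 3 without day 1 library 1, 2 and 3, and 3 without 12 weeks library 3. With ADORA1 and LOC100009266 left out 3 rose and 1 fell.

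Glycolysis genes fell in 9 of 19 tested and rose in 2, and of the 18 not at the minimum at day 1 alone, 8 fell. The rises were 0 or 1 with any library left out. SLC2A1, the glucose transporter GLUT1, was at 6.97, 3.75 and 6.79 at day 1 and 0.996, 1.41 and 0.539 at 12 weeks (log2 change -1.77 ± 0.25 SE, adjusted p = 0.0019). HK2, a hexokinase, was at 26.7, 32.1 and 28.8 at day 1 and 13.0, 9.99 and 9.38 at 12 weeks (log2 change -1.36 ± 0.16 SE, adjusted p = 0.000913). ENO2 fell by 1.62 (adjusted p = 0.00138). ALDOA, the main aldolase, missed the threshold, at 472, 424 and 247 at day 1 and 235, 205 and 238 at 12 weeks (log2 change -0.70 ± 0.25 SE, adjusted p = 0.0533), and passed as deposited (0.0283) and without day 1 library 3 (0.00861). It is also a gene of skeletal muscle, whose markers were low in that library, and the part of muscle in the call of ALDOA was not tested.

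Fat cell genes split. Of 14 tested, 7 rose and 0 fell, and 6 rose of the 13 not at the minimum at 12 weeks alone. Without day 1 library 2, in which fat cell markers were lowest, 3 fell. The most abundant were not called. FABP4, a fatty acid carrier, was at 4700, 1490 and 5967 at day 1 and 2385, 3838 and 4140 at 12 weeks (log2 change -0.05 ± 0.52 SE, adjusted p = 0.947), and ADIPOQ had a fold of -0.30 (adjusted p = 0.479). Both overlapped between the ages. CIDEC, a protein of the lipid droplet surface, was at 1.92, 0.936 and 2.93 at day 1 and 14.3, 15.98 and 15.8 at 12 weeks (log2 change 2.54 ± 0.25 SE, adjusted p = 0.000524), and its relative CIDEA at 4.93, 2.53 and 9.68 at day 1 and 52.2, 51.6 and 59.1 at 12 weeks (log2 change 3.19 ± 0.35 SE, adjusted p = 0.000824). GPD1, which makes glycerol phosphate for triglycerides, was at 5.13, 4.37 and 6.34 at day 1 and 64.0, 42.2 and 49.95 at 12 weeks (log2 change 3.07 ± 0.19 SE, adjusted p = 0.000113). DGAT2, the last enzyme of triglyceride synthesis, was at 9.73, 5.94 and 14.6 at day 1 and 50.03, 49.2 and 57.2 at 12 weeks (log2 change 2.34 ± 0.27 SE, adjusted p = 0.000965). Each 12 weeks library was well above any day 1 library for these genes, and above it for 28.9% of all tested genes. The summed fat cell markers were 5207, 1947 and 6816 at day 1 and 3108, 4750 and 4829 at 12 weeks, overlapping. LEP, the hormone leptin, was listed at 0 in day 1 library 2 and was at most 0.0472 in the other day 1 libraries, against 1.74, 5.14 and 5.68 at 12 weeks (adjusted p = 0.00197). LEP was the member at the minimum at 12 weeks alone.

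Lipid uptake and synthesis had 5 rises and 3 falls among 16 tested. These shares, 31.2% and 18.8%, were near the 22.8% and 22.9% of all tested genes. ACSS2, which turns acetate into acetyl-CoA, was at 5.61, 6.06 and 5.74 at day 1 and 30.7, 23.5 and 31.5 at 12 weeks (log2 change 2.11 ± 0.15 SE, adjusted p = 0.000171). SREBF1, a factor that drives lipogenesis, rose by 1.51 and LPL, the lipase of triglyceride uptake, by 1.36 (adjusted p of 0.00281 and 0.00322). LPIN1 fell by 1.65 (adjusted p = 0.00169). Of 11 tested genes of the thermogenic list 5 fell and 3 rose, and of the 9 not at the minimum at day 1 alone, 3 fell. The falls were 3 without any 1 of the day 1 libraries. PDK4, which steers mitochondria from glucose to fat, was at 66.3, 54.6 and 103 at day 1 and 9.25, 17.1 and 11.0 at 12 weeks (log2 change -2.48 ± 0.29 SE, adjusted p = 0.000913). CPT1B, the carrier of fatty acids into mitochondria, fell by 1.36 and PRDM16, a factor of brown fat identity, by 1.048 (adjusted p of 0.00209 and 0.00442). The 3 that rose were CIDEA, by 3.19, LHX8, by 0.895, and ZIC1, by 0.5 (adjusted p of 0.000824, 0.0223 and 0.0279). Rises numbered 1 without 12 weeks library 1 or 3 or with ADORA1 and LOC100009266 left out. EBF2, which marks brown progenitors, was not called, at 11.9, 14.3 and 11.9 at day 1 and 12.2, 10.9 and 12.6 at 12 weeks (log2 change -0.09 ± 0.13 SE, adjusted p = 0.622).

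Core genes of the circadian clock moved apart from each other. Of 15 tested, 6 rose and 6 fell, and of the 14 not at the minimum at day 1 alone, 6 rose and 5 fell. NR1D1, a repressor within the clock, was at 2.86, 5.91 and 5.55 at day 1 and 63.9, 38.1 and 49.8 at 12 weeks (log2 change 3.18 ± 0.27 SE, adjusted p = 0.00036). TEF, an output factor, was at 4.23, 5.33 and 4.23 at day 1 and 33.7, 31.6 and 25.0 at 12 weeks (log2 change 2.47 ± 0.16 SE, adjusted p = 0.000121), and its relative HLF rose by 1.93 (adjusted p = 0.000122). The clock activator ARNTL was at 10.4, 7.96 and 8.22 at day 1 and 0.695, 0.880 and 0.944 at 12 weeks (log2 change -2.42 ± 0.15 SE, adjusted p = 0.000113), and its partner NPAS2 fell by 1.81 (adjusted p = 0.00321). CRY1 was at 16.4, 10.1 and 15.9 at day 1 and 1.26, 3.12 and 1.63 at 12 weeks (log2 change -2.35 ± 0.27 SE, adjusted p = 0.000893). No values of the ages overlapped for these genes, as for 57.5% of all tested genes. For ARNTL, which reached the minimum at day 1 alone, the lack of overlap followed from the filter. The labels give no hour of collection, and a difference in hour cannot be told apart from a difference in age.

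Hedgehog and Notch genes fell in 11 of 20 tested and rose in 1, and of the 18 not at the minimum at 1 age alone, 10 fell and 0 rose. PTCH1, the hedgehog receptor and a target of the pathway, was at 8.69, 6.21 and 6.59 at day 1 and 1.504, 2.06 and 0.989 at 12 weeks (log2 change -1.71 ± 0.20 SE, adjusted p = 0.000998), and the target GLI1 fell by 1.55 (adjusted p = 0.000685). HHIP, which binds hedgehog ligands outside the cell, was the one that rose, at 0.345, 0.312 and 0.378 at day 1 and 9.47, 2.33 and 12.0 at 12 weeks (log2 change 2.52 ± 0.46 SE, adjusted p = 0.00451). HHIP reached the minimum at 12 weeks alone. The Notch targets HEY1 and HEYL fell by 1.66 and 1.88 (adjusted p of 0.00299 and 0.00155). The count of falls was 7 without day 1 library 1 or 3. Among 19 genes of FGF and PDGF signalling 7 rose and 6 fell (36.8% and 31.6%, against 22.8% and 22.9% of all tested genes). Of the 18 not at the minimum at 12 weeks alone, 6 rose. FGF10, a growth factor of adipose stroma, was at 2.87, 4.09 and 3.69 at day 1 and 10.6, 9.98 and 15.3 at 12 weeks (log2 change 1.498 ± 0.19 SE, adjusted p = 0.00136). KLB, the co-receptor of FGF21, was at 0.345, 0.171 and 0.916 at day 1 and 4.90, 7.05 and 5.58 at 12 weeks (log2 change 2.23 ± 0.22 SE, adjusted p = 0.000559). KLB was the member at the minimum at 12 weeks alone. The ligand PDGFC fell by 1.78 and the feedback inhibitor SPRY1 by 1.203 (adjusted p of 0.000259 and 0.000857).

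Integrins and adhesion receptors fell in 14 of 22 tested and rose in 3, with a median fold of -1.08, and 9 fell without day 1 library 3. Of the 20 not at the minimum at day 1 alone, 12 fell. ITGA11, a collagen receptor of fibroblasts, was the exception of largest size, at 7.48, 18.4 and 9.29 at day 1 and 93.7, 61.6 and 67.9 at 12 weeks (log2 change 2.64 ± 0.31 SE, adjusted p = 0.00101). ITGAV fell by 1.19, ITGA6 by 1.26 and the cadherin CDH2 by 1.497 (adjusted p of 0.00524, 0.00771 and 0.00218). Detoxifying and antioxidant enzymes rose in 12 of 20 tested and fell in 4, and 11 rose of the 19 not at the minimum at 12 weeks alone. The falls were 2 without day 1 library 1 or 3. SOD3, the superoxide dismutase outside the cell, was at 23.3, 24.3 and 9.29 at day 1 and 158, 206 and 167 at 12 weeks (log2 change 3.25 ± 0.34 SE, adjusted p = 0.000634). GSTM3 rose by 1.54 (adjusted p = 0.00289). HMOX1, which degrades haem, was at 88.5, 76.1 and 120.4 at day 1 and 24.9, 18.9 and 29.6 at 12 weeks (log2 change -1.91 ± 0.22 SE, adjusted p = 0.000964), and CYP1B1 fell by 1.88 (adjusted p = 0.000873).

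Immediate early and heat shock genes, which respond within minutes to handling and stress of cells, fell in 8 of 18 tested and rose in 3. EGR3 was at 60.6, 68.1 and 65.3 at day 1 and 10.7, 12.5 and 9.12 at 12 weeks (log2 change -2.49 ± 0.15 SE, adjusted p = 9.78e-05), and EGR2 fell by 2.09 (adjusted p = 0.000439). EGR1 was high at both ages and not called, at 844, 805 and 760.5 at day 1 and 749, 771 and 716 at 12 weeks (log2 change -0.11 ± 0.16 SE, adjusted p = 0.599). HSPH1, a heat shock chaperone, was at 54.4, 58.2 and 114 at day 1 and 17.0, 16.1 and 21.9 at 12 weeks (log2 change -1.92 ± 0.28 SE, adjusted p = 0.00218), with day 1 library 3 highest. The 3 rises were 1 without day 1 library 1. Among homeobox and limb position factors 8 of 16 rose and 3 fell, and 7 rose of the 15 not at the minimum at 12 weeks alone. HOXC4 was at 4.89, 7.12 and 4.39 at day 1 and 14.3, 12.0 and 18.2 at 12 weeks (log2 change 1.297 ± 0.21 SE, adjusted p = 0.00291), and MEOX1, a factor of the early somite, fell, at 17.5, 8.21 and 8.56 at day 1 and 0.819, 2.61 and 0.921 at 12 weeks (log2 change -2.34 ± 0.35 SE, adjusted p = 0.00224). The rises were 4, 5 and 5 without 12 weeks library 1, 2 and 3, and the falls 1 without day 1 library 1 or 3 or 12 weeks library 1 or 3.

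The other ages show the path between the ends. Of the 2753 genes called higher at 12 weeks, 2296 had a 3 weeks mean between those of the ends and 2173 a 6 weeks mean between them, and 832 rose at each step. Of the 2756 called lower, the numbers were 2185, 2072 and 609. ITGBL1 had reached 226 by 3 weeks, against 16.01 at day 1 and 273 at 12 weeks. C4BPA was still at 26.6 at 3 weeks and 66.8 at 6 weeks, against 446 at 12 weeks. TNC had fallen from 19.01 to 0.605 by 3 weeks. CIDEA, at 5.71 at day 1, 68.0 at 3 weeks, 5.92 at 6 weeks and 54.3 at 12 weeks, did not follow a steady course.

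The subscapular stroma of the same ages, in libraries of its own, was used to ask where the interscapular change differs between depots. There 4627 of 12952 genes (35.7%) were called, 2378 higher (18.4%) and 2249 lower (17.4%), and as deposited 5611 were higher and 925 lower. Called in both depots were 2889 genes, 2852 in the same direction, which is 51.8% of the interscapular calls and 61.6% of the subscapular ones. The folds correlated across 12054 genes with r = 0.762, as a description. In subscapular stroma 0 of 23 genes of the oxidative phosphorylation list rose and 5 fell, the falls near the 17.4% among all genes tested there. Of its ribosome list 4 of 25 rose, near the 18.4% among all genes, and of the imprinted list 7 of 11 fell.

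A test of the difference itself, the interaction of depot and age in a fit of the 12 libraries, called 171 of 12952 genes (1.32%), 67 with a higher fold in interscapular stroma (0.517%) and 104 with a lower one (0.803%). Unadjusted p was under 0.05 for 2829. Leaving out 1 library gave between 1 and 688 calls, and each library but interscapular 12 weeks library 2 (167 calls without it) moved the count by more than 1.5 times. The count of 1 arose without interscapular 12 weeks library 1 or subscapular 12 weeks library 2, and 688 without subscapular 12 weeks library 3. As deposited, 54 genes were higher and 3288 lower. Of the 25 ribosome genes 0 were called (14 at an unadjusted p under 0.05), of the 23 oxidative phosphorylation genes 2, both higher, and of the 11 imprinted genes 2, both lower. CEBPA, a factor that drives fat cell maturation, kept its call with any 1 library left out and under each other alternative tried. In interscapular stroma it was at 8.73, 8.98 and 7.75 at day 1 and 6.41, 6.998 and 5.82 at 12 weeks, and in subscapular stroma at 4.03, 5.10 and 5.17 and 19.8, 20.6 and 16.1. Its fold was thus -0.36 against 1.78, a difference of -2.14 ± 0.19 SE (adjusted p = 0.00196). The subscapular rise of CEBPA was called (adjusted p = 7.41e-06), while its interscapular fall was not (adjusted p = 0.058). That fall was called under several alternatives, among them as deposited (0.0468) and with ADORA1 and LOC100009266 left out (0.0207).

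Several genes that lead the interscapular change also differed between depots, with calls that were lost without interscapular 12 weeks library 1 or subscapular 12 weeks library 2, where CEBPA alone was called. Taking the 12 libraries out one at a time, the calls of C4BPA, PODN, MMP27, PEG10, PEG3 and IL34 were each lost without 5 to 10 of them. C4BPA rose by 5.58 against 3.23 in subscapular stroma, a difference of 2.35 (adjusted p = 0.0398). PODN rose by 3.69 against 2.30 (difference 1.38, adjusted p = 0.0295), and MMP27 by 4.21 against 1.29 (difference 2.92, adjusted p = 0.0356). The subscapular means of MMP27 were low, 0.269 at day 1 and 2.32 at 12 weeks, and with a pseudocount of 0.1 its difference was 1.92 and not called (adjusted p = 0.272). PEG10 fell by 4.27, with a subscapular fold of -2.63 and a difference of -1.64 (adjusted p = 0.0215). PEG3 had folds of -2.80 and -1.06, a difference of -1.75 (adjusted p = 0.0383). The cytokine gene IL34 had folds of 2.27 and 0.93, a difference of 1.34 (adjusted p = 0.0373). With no filter on low values the calls of C4BPA, PEG3 and IL34 were lost (adjusted p of 0.0605, 0.0598 and 0.0542), and as deposited the differences of PODN and IL34 were 0.812 and 0.822, still called. For ALDH1A1, NR1D1 and THBS1 the differences were 0.26, 0.21 and -0.02 and were not called (adjusted p of 0.758, 0.81 and 0.978).

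**Figure D5:**
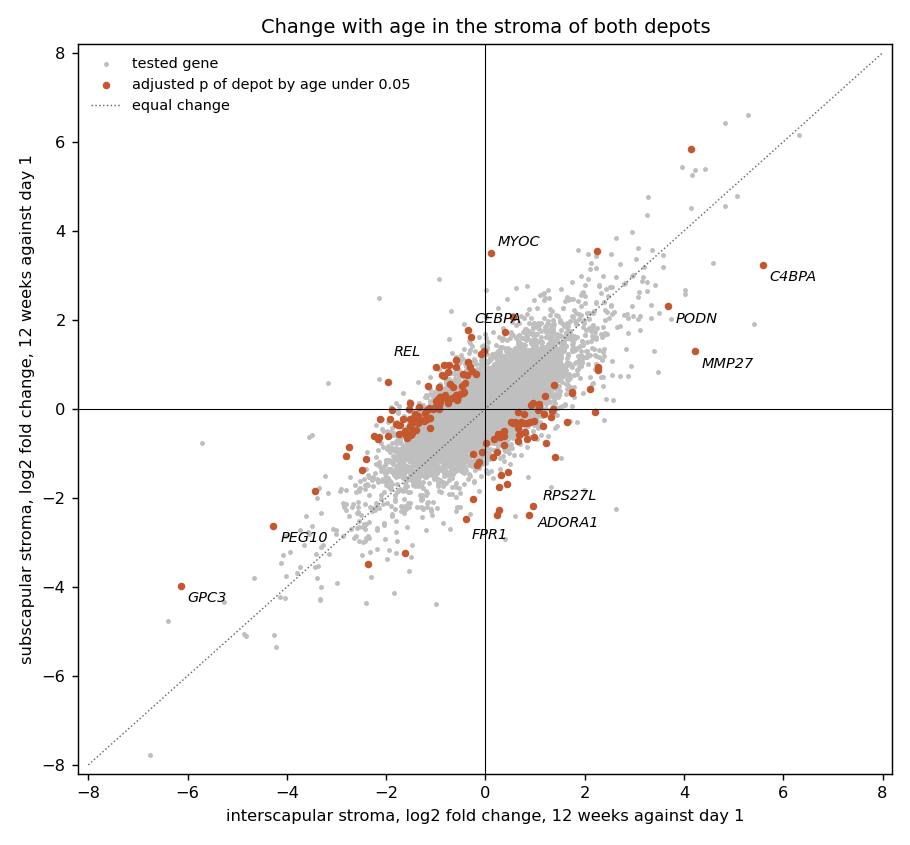
Log2 fold change of 12 weeks against day 1 in interscapular stroma (horizontal) and subscapular stroma (vertical) for each tested gene, with genes whose fold differed between depots (adjusted p under 0.05) in orange and a dotted line of equal change. MYOC and CEBPA lie above the line and MMP27, ADORA1, RPS27L and FPR1 below it.

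Whole interscapular fat, deposited in a table of its own, holds the fat cells as well as the stroma, and its levels are not on the scale of the stroma. Of 11992 genes tested there, 5519 (46.0%) were called between the same ages, 2818 higher (23.5%) and 2701 lower (22.5%), and as deposited 3790 were higher and 1890 lower. Of 11141 genes tested in both tables, 2606 were called in both, 2043 in the same direction and 563 in the opposite one. The 2043 are 37.1% of the calls in stroma and 37.0% of those in whole fat. No test was made across the tables. The oxidative phosphorylation list had 23 of 23 tested members lower in whole fat, with a median fold of -2.26, against 8 higher and 0 lower in stroma. COX4I1 had folds of -1.87 in whole fat and 0.92 in stroma. The imprinted PEG10 went the other way. PEG10 rose in whole fat, where its level was 9.74 ± 1.46 at day 1 and 35.5 ± 16.8 at 12 weeks (SD, n = 3), a fold of 1.68 in the limma fit with an adjusted p of 0.00186, and fell in stroma. COL5A3 likewise had folds of 1.45 and -2.36. ALDH1A1, ITGBL1, PODN and NR1D1 had folds of 4.39, 4.35, 3.38 and 3.21 in whole fat, higher as in the stroma. GPC3 and PLAGL1 had folds of -3.15 and -2.01, lower as in the stroma.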

How the data were processed

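RNA sequencing of interscapular stroma at day 1 and 12 weeks (3 libraries each) was analysed from the table the authors deposited, whose columns hold FPKM per gene. Per the submitters' processing notes, HISAT2 2.0.4, Bowtie2 2.2.5 and DESeq2 were among the tools and OryCun2.0 was the genome build. Their roles, the counting tool and the annotation are not given in the sources used here. No read counts were used. Libraries follow the labels, and 0 value columns were without a sample. The libraries compared were scaled by median ratio over the 11898 genes above 0 in all 6, genes that reached an FPKM of 1 in 3 or more of them were kept, and log2(FPKM + 1) was tested with limma 3.58.1 in R 4.3.3 (two-sided, moderated with a variance trend, Benjamini-Hochberg adjustment over all genes tested, threshold 0.05). The depots were compared in a fit of 12 stromal libraries and whole fat in a fit of its own 6. The code was tested on simulated data.

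Named genes are the 12 largest rises and falls with a mean of at least 10 at 1 age and no overlap, up to 6 called and 2 uncalled members of each of 44 lists, 4 interaction genes each way, the most abundant genes and defining markers. A few genes that met this rule are not reported here. The members and lists were chosen with earlier results of these data known. Lists were matched by symbol, and genes not found were not analysed here. Of 20589 gene identifiers 17693 were in the RefSeq table used for symbols. Genes with near-identical copies, such as ribosomal protein and actin genes, are uncertain where the authors' counting could split their reads. Alternatives were scaling, pseudocount, filter, the libraries in the fit, a minimum fold, a fit without the trend, each library left out and a replicate block. The labels give no sequencing batch.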

Additional observations from a re-analysis of the deposited data

Results flagged for a closer look

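For 8 genes, the 4 largest differences each way by the rule for named genes, the change from day 1 to 12 weeks differed between interscapular and subscapular stroma in the limma test of the depot by age interaction (1.32% of 12952 genes called). The differences are interscapular minus subscapular log2 fold changes. CEBPA had a difference of -2.14 (adjusted p = 0.00196), and its values are given above. GPC3 fell in both depots, with a difference of -2.17 (adjusted p = 0.0343) from folds of -6.14 and -3.97. MYOC, which encodes the secreted protein myocilin, had a difference of -3.41 (adjusted p = 0.0359) from folds of 0.10 and 3.51. REL, a subunit of NF-kappaB, had a difference of -1.93 (adjusted p = 0.0462) from folds of -0.99 and 0.94.

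Among the differences upward, MMP27 had 2.92 (adjusted p = 0.0356), or 1.92 with a pseudocount of 0.1, where it was not called (adjusted p = 0.272), and FPR1, a receptor for formyl peptides on phagocytes, 2.63 (adjusted p = 0.0359) from folds of 0.24 and -2.39. RPS27L, a ribosomal protein paralog, had 3.14 (adjusted p = 0.0488) from folds of 0.96 and -2.18, the former not called without day 1 library 1 or 3 or 12 weeks library 2 or 3. ADORA1 had 3.26 (adjusted p = 0.0483) from folds of 0.88 and -2.38, the former 1.49 and called (adjusted p = 0.0178) without interscapular day 1 library 3. Whether the reads under this name come from ADORA1 was not tested. With LOC100009266 it took 26.2 to 37.3% of the FPKM of the subscapular day 1 libraries and 5.21 to 8.81% at 12 weeks. With no filter on low values the calls of MYOC, REL, FPR1, RPS27L and ADORA1 were lost (adjusted p of 0.0579, 0.068, 0.0536, 0.0706 and 0.349), and those of RPS27L and ADORA1 also with a pseudocount of 0.1 (0.0587 and 0.0538). Without subscapular 12 weeks library 2, CEBPA alone of the 8 kept its call.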

How the results depend on the processing

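The totals given first are for the age difference in interscapular stroma and leave out the depot differences. For the 170 genes named in the text, 2748 of 2803 values under the alternatives kept their direction and their side of the threshold. Of the others, 15 lost the call, 29 gained it and 11 changed sign, and 152 genes kept both in every alternative run. Of the depot calls named, each but that of CEBPA was lost without 5 to 11 of the 12 libraries, taken out one at a time. The 11 changes of sign were in age differences not called: NDN (-0.007 as deposited, -0.158 with ADORA1 and LOC100009266 left out, -0.015 to 0.252 with 1 library left out), MYOC (-0.001, -0.136 and -0.416 to 0.513), FPR1 (-0.008 with the pair left out) and FABP4 (-0.69 to 0.313 with 1 library left out). Outside those totals, 3 depot differences not called also changed sign: ALDH1A1 (-0.277 as deposited, -0.006 to 0.677 with 1 library left out), NR1D1 (-0.342 as deposited, -0.068 to 0.526) and THBS1 (0.012 without the filter, -0.224 to 0.163). Where no value shows it, the cause of a change was not tested. The interscapular count was 3807 to 4742 with 1 library left out (1894 to 2343 higher, 1913 to 2399 lower), lowest without day 1 library 3. A minimum log2 fold of 1 left 1902 genes (940 higher, 962 lower), and leaving out the pair left 1611 higher. The subscapular count was 3594 to 4639 with 1 library left out (1800 to 2392 higher, 1794 to 2345 lower), and as deposited 5611 were higher and 925 lower. In whole fat leaving out 1 library gave 4184 to 4729 (2053 to 2440 higher, 2131 to 2289 lower). The interaction gave 1 to 688 calls with 1 library left out (0 to 310 higher, 1 to 378 lower), 3342 as deposited (3288 lower) and 93 without the filter (36 higher, 57 lower). The depth is unknown, so no limit from counting can be given for low FPKM.

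Replicate numbers recur between ages, but same-numbered interscapular libraries did not deviate together (correlations of -0.173, -0.368 and -0.187), nor did those of whole fat (-0.084, -0.02 and 0.169). Between depots the correlations were 0.051, 0.593 and 0.331 at day 1 and 0.215, 0.503 and 0.325 at 12 weeks, and at 12 weeks each library correlated best with its own number, a hint from the data and not from the design. With the replicate number as a block, 4173 genes were called in interscapular stroma, 2910 in subscapular stroma (1493 higher, 1417 lower), 5318 in whole fat and 686 for the interaction (302 higher, 384 lower). Of the genes named, SPARC and RPS27L were then not called between the ages (adjusted p of 0.0502 and 0.0543).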

Other observations

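Further gene groups of interscapular stroma, read against 22.8% higher and 22.9% lower among all tested genes, moved as follows. Mast cell and granulocyte genes fell in 4 of 9 tested and rose in 0, and 3 of the 8 not at the minimum at day 1 alone fell. KIT, the stem cell factor receptor that mast cells keep, fell by 1.202, and FCER1A, a chain of their IgE receptor, by 1.43 (limma, adjusted p of 0.0072 and 0.0076). Without 12 weeks library 2, 1 of the list rose. Of 7 erythroid genes 3 fell and 1 rose. TFRC, the receptor for iron-loaded transferrin, was at 13.5, 13.0 and 21.1 at day 1 and 3.36, 4.92 and 3.77 at 12 weeks (log2 change -1.73 ± 0.21 SE, adjusted p = 0.00113). The erythroid falls were 6 without day 1 library 2 and 1 without any other library.

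Skeletal muscle genes fell in 2 of 7 tested, and in 7 of 7 without day 1 library 3. ACTA1, the actin of skeletal muscle fibres, was at 752, 947 and 11.8 at day 1 and 0.705, 0.469 and 63.6 at 12 weeks (log2 change -5.26 ± 1.95 SE, adjusted p = 0.059). It was low in day 1 library 3 and at its 12 weeks highest in library 3, so its ages overlapped. The mesothelial list had 1 tested gene, which fell and was at the minimum at day 1 alone.

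Cholesterol synthesis genes fell in 4 of 15 tested and rose in 2, and the falls were 2 without day 1 library 1 or 12 weeks library 1. SQLE, an enzyme of the pathway, was at 11.9, 11.3 and 9.48 at day 1 and 4.35, 7.80 and 5.49 at 12 weeks (log2 change -0.81 ± 0.20 SE, adjusted p = 0.0143). In whole interscapular fat 13 of 15 tested members of the list rose and 0 fell. Glucocorticoid and thyroid hormone targets rose in 3 of 13 and fell in 2. FKBP5, a chaperone that glucocorticoids induce, was at 24.6, 10.5 and 14.9 at day 1 and 2.42, 3.20 and 1.96 at 12 weeks (log2 change -2.26 ± 0.29 SE, adjusted p = 0.00129), and THRB, a thyroid hormone receptor, rose by 1.11 (adjusted p = 0.00312). Interferon response genes rose in 2 of 17 and fell in 0, and 8 rose without day 1 library 3. Cell cycle inhibitors rose in 3 of 10 and fell in 3, and the falls were 1 without 12 weeks library 2 or 3.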
